A study of Sus scrofa with 45 samples.

Results

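The 8 genes CD14, LYZ, FCGR1A, CD163, MRC1, CST3, CD68 and VCAN, which are used as markers of monocytes and macrophages, were followed in the blood of miniature pigs on 3 diets. They were chosen by name. Every probe of the array whose gene name or description matched 1 of them was kept, apart from 2 excluded by their wording. This gave 21 of the 43603 probes. Monocytes circulate in blood, enter tissues and turn into macrophages, which take up microbes, dying cells and modified lipoproteins. In the artery wall they are the cells that load lipid from such particles. CD14 and FCGR1A bind bacterial lipopolysaccharide and immunoglobulin G at the cell surface, CD163 and MRC1 are scavenger receptors, LYZ, CST3 and CD68 are products of the secretory and lysosomal pathway, and VCAN is a proteoglycan of the extracellular matrix.

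The 45 arrays were hybridised with RNA of male Clawn miniature pigs, 33 with RNA of whole blood and 12 with RNA of white blood cells. The control pigs ate a standard diet, the HFCD pigs a high-fat and high-cholesterol diet with lard and cholesterol, and the HFCSD pigs the same with sucrose added. Week means time on the diet, and age cannot be told apart from it. The comparisons ask how the diets, the feeding period and the sample type bear on the RNA levels of these genes.

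Whole blood was taken at week 10 (4 control, 4 HFCD and 4 HFCSD arrays), at week 19 (4 control, 4 HFCD and 3 HFCSD arrays) and at week 27 (4 control, 3 HFCD and 3 HFCSD arrays). White blood cells were taken at week 27 only, with 4 arrays for each diet. Since each sample type had its own RNA kit and scan day, sample type, kit and scan day cannot be told apart. Whole blood of week 10 and of week 27 was likewise scanned on different days and slides, so feeding time and scan day cannot be told apart either. At week 19, control arrays 2 to 4 were scanned on another day than control array 1 and all HFCD and HFCSD arrays. The small number of arrays in a group limits the precision of all values.

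Levels are log2 intensities, that is the brightness of a probe after subtraction of the background and quantile normalization over the 45 arrays, so that a difference of 1 is a factor of 2. A probe counted as detected where the scanner software called its spot well above background. Between 35.4% and 53.3% of the spots of an array met this. In control, HFCD and HFCSD whole blood the median of this share was 42.5%, 47.4% and 44.8% at week 10. It was 42.9%, 39.8% and 42% at week 19 and 48.0%, 46.0% and 39.6% at week 27. Differences were tested with limma, two-sided, over all probes that at least 1 of the groups showed as detected throughout its usable arrays, and a probe passed where its Benjamini-Hochberg adjusted p was under 0.05. Group values are given as mean (SD). Where all arrays of a group lay above or below those of another, the share of all probes that did so is not given. The probe sets of different genes bind with different strength, so levels are compared within a probe, and the brightest probe of a list is not taken as its most abundant gene.

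The labelled sample types were checked against marker genes of blood cells. T cells had 7 of 11 listed markers on the array (brightest probe of CD3D), NK cells 3 of 6 (GNLY), neutrophils 3 of 9 (MMP9), platelets 5 of 9 (ITGA2B) and monocytes 8 of 8 (CST3). No marker found on the array lacked a detected value on all arrays. PTPRC, the common marker of leukocytes, and the 10 erythroid markers were not found by symbol. Therefore 3 probes were taken by their description after values had been seen: HBE1, an embryonic hemoglobin chain, hemoglobin alpha, which was detected on 1 of the 45 arrays, and platelet factor 4 (PF4).

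The level of HBE1 in whole blood at week 27 was 12.99 (0.71) in control, 13.20 (0.49) in HFCD and 13.99 (0.40) in HFCSD arrays. White blood cell arrays had 11.42 (2.82), 10.90 (2.33) and 11.48 (1.04). These means were the lower under every diet, by -1.57, -2.29 and -2.51, and none passed (limma adjusted p = 0.25, 0.114 and 0.0729). HBE1 stayed above 10 on 10 of the 12 white blood cell arrays.

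A pair of white blood cell arrays stood apart. HBE1 was at 7.22 on control array 1 against 12.33, 13.16 and 12.96 on the other control arrays, and at 7.51 on HFCD array 2 against 12.04, 11.36 and 12.71 on the other HFCD arrays. PF4 was at 10.30 and 9.17 on these 2 arrays and between 11.96 and 14.23 on the other 10. Both probes were thus lowest on the same 2 arrays. Results in white blood cells are given with and without them, and this alternative was added once the values were known. In whole blood, PF4 was at 10.68 and 8.80 on HFCD arrays 1 and 4 of week 19 against 13.38 and 13.54 on the other 2. HBE1 was at 11.01 on HFCD array 1 of that week against 13.65, 13.88 and 13.99 on the other HFCD arrays. CD14 was far below the rest on HFCSD array 3 of week 19 and control array 4 of week 27. Values without such arrays are given where they bear on a result.

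Of the 21 probes, 17 were detected often enough to enter at least 1 of the 20 comparisons. The other 4 (3 of CD163 and 1 of VCAN) were detected on 0 to 2 of the 45 arrays and were tested nowhere. CST3, LYZ, 1 probe of CD14, 3 of CD163 and 2 of CD68 were detected on all 45 arrays. FCGR1A was detected on 15 of 33 whole blood and 12 of 12 white blood cell arrays, and MRC1 on 3 of 33 and 12 of 12. In whole blood or white blood cell RNA, fewer cells of a type and less RNA per cell cannot be told apart.

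No member probe passed in a comparison of a diet with control. In whole blood at week 10, limma passed 0 of 12 member probes for HFCD and 0 of 11 for HFCSD, beside 0.0281% and 0.0123% of all probes tested. At week 19 it passed 0 of 11 and 0 of 11, beside 0.0181% and 0.0175%. An unadjusted p under 0.05 was seen for 1 and 0 member probes at week 10, beside 1776 of 17766 and 280 of 16196 of all probes. At week 19 the counts were 3 and 1 member probes, beside 2072 of 16613 and 2041 of 17177. At week 27 limma passed 0 of 13 for HFCD and 0 of 11 for HFCSD, beside 0.0165% and 10.6%. Here 2 and 1 member probes had an unadjusted p under 0.05, beside 1009 of 18186 and 5524 of 17133 of all probes. HFCSD at week 27 was the diet comparison with the largest share of probes passing, 1161 higher and 663 lower of 17133, and the median log2 difference was -0.21 over all probes and -0.09 over the member probes. In white blood cells limma passed 0 of 17 for each diet, beside 0.0276% for HFCD and 0.0366% for HFCSD. There 2 and 2 member probes had an unadjusted p under 0.05, beside 857 of 18125 and 2157 of 19102 of all probes. HFCD and HFCSD share the control arrays of their week.

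HFCSD was also set against HFCD, which differ in sucrose. Limma passed 0 of 12 member probes at week 10, 0 of 10 at week 19, 0 of 13 at week 27 and 0 of 16 in white blood cells. Of all probes 0%, 0%, 0.0111% and 0% passed. In none of the 4 did a member probe reach an unadjusted p under 0.05. Of all probes 886 of 17916, 253 of 16277, 2259 of 18003 and 407 of 18797 did. Over the 12 comparisons between diets, the methods' t-test with the same adjustment passed 0 member probes. At the methods' own threshold, unadjusted with a fold over 2, it passed 1 member probe each for HFCD at week 19, HFCD at week 27 and HFCSD at week 27 in whole blood, and 0 in the other 9.

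Between sample types the picture differed. White blood cells had 6 of 17 member probes higher than whole blood in control pigs, 4 of 16 in HFCD pigs and 5 of 16 in HFCSD pigs, and 0 lower. Of all probes tested, 45.3%, 47.5% and 58.8% passed in these comparisons, with 24.4%, 25.5% and 37.1% of those tested higher in white blood cells. Most of the members that passed had entered the test only through white blood cells, where they were detected throughout. Of all probes with that route 8 of 2615, 0 of 1604 and 24 of 4413 were lower there and 56.7%, 65.3% and 68.2% higher, so no weight is put on the number of members. Where a probe was detected on few or no whole blood arrays, its log2 difference is measured against background and its size is not exact. Over feeding time in whole blood, limma passed 0 of 11 member probes in control, 0 of 14 in HFCD and 0 of 11 in HFCSD pigs at week 27 against week 10, beside 20.7%, 5.6% and 10.3% of all probes. An unadjusted limma p under 0.05 was seen for 4, 4 and 2 member probes, beside 6086 of 17138, 3859 of 18861 and 4409 of 16460 of all probes. The methods' t-test with adjustment passed 0 member probes in each comparison.

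CD14 is the coreceptor that hands lipopolysaccharide to the toll-like receptor complex, and it is the classical surface marker of monocytes. It had 2 probes on 1 RefSeq transcript, which are shown because they gave different answers on sample type: P088666 starts at base 536 and P050971 at base 1296 of the array's reference sequence.
CD14 P088666: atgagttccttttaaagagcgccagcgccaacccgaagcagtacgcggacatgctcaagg
CD14 P050971: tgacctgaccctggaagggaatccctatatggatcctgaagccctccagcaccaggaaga
P050971 was detected on all arrays, and its level in whole blood at week 10 was 10.75, 9.60, 9.54 and 10.28 in control, 8.95, 10.28, 9.28 and 10.45 in HFCD and 9.25, 9.17, 8.96 and 10.26 in HFCSD arrays. The groups overlapped, with means of 10.04 (0.58), 9.74 (0.74) and 9.41 (0.58).

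At week 19 the level of CD14 P050971 was 10.14, 10.42, 10.69 and 9.92 in control arrays, 7.17, 10.09, 9.88 and 8.75 in HFCD arrays and 9.68, 9.28 and 7.03 in HFCSD arrays. The control arrays lay close together and above all HFCSD arrays, and HFCD array 1 and HFCSD array 3 lay far below the rest. The log2 difference from control was -1.32 (95% confidence interval -2.80 to 0.16, limma adjusted p = 0.45) for HFCD and -1.63 (-3.23 to -0.03, adjusted p = 0.416) for HFCSD. Without HFCD array 1 the former was -0.72 (adjusted p = 0.529), and without HFCSD array 3 the latter was -0.82 (adjusted p = 0.759). With scan day as a block they were -1.17 and -1.48 (adjusted p = 0.849 and 0.65). P088666 gave -1.26 and -1.66 (adjusted p = 0.571 and 0.468), and -0.07 and -0.47 with the block (adjusted p = 0.99 and 0.889).

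At week 27 CD14 P050971 in whole blood was at 10.59, 10.59, 10.54 and 8.59 in control, 10.30, 9.96 and 10.16 in HFCD and 9.5, 11.05 and 9.40 in HFCSD arrays. The control group held 3 nearly equal arrays and array 4, which lay below all others of the week. Differences from control were 0.06 for HFCD and -0.09 for HFCSD, and -0.43 and -0.59 without control array 4, so that their sign rested on that array for HFCD (adjusted p between 0.304 and 0.998). In white blood cells the level was 11.20, 10.18, 10.68 and 10.85 in control, 10.49, 9.40, 10.65 and 9.95 in HFCD and 9.96, 8.52, 10.70 and 10.02 in HFCSD arrays. All HFCSD arrays and all HFCD arrays were below the control mean, yet the groups overlapped: the differences were -0.60 (adjusted p = 0.997) and -0.92 (-1.85 to 0.01, adjusted p = 0.446). P088666 was -1.09 for HFCSD (-1.94 to -0.23, unadjusted p = 0.0172, adjusted p = 0.356), and -0.93 without the 2 white blood cell arrays low in HBE1 (adjusted p = 0.287).

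**Figure D1:**
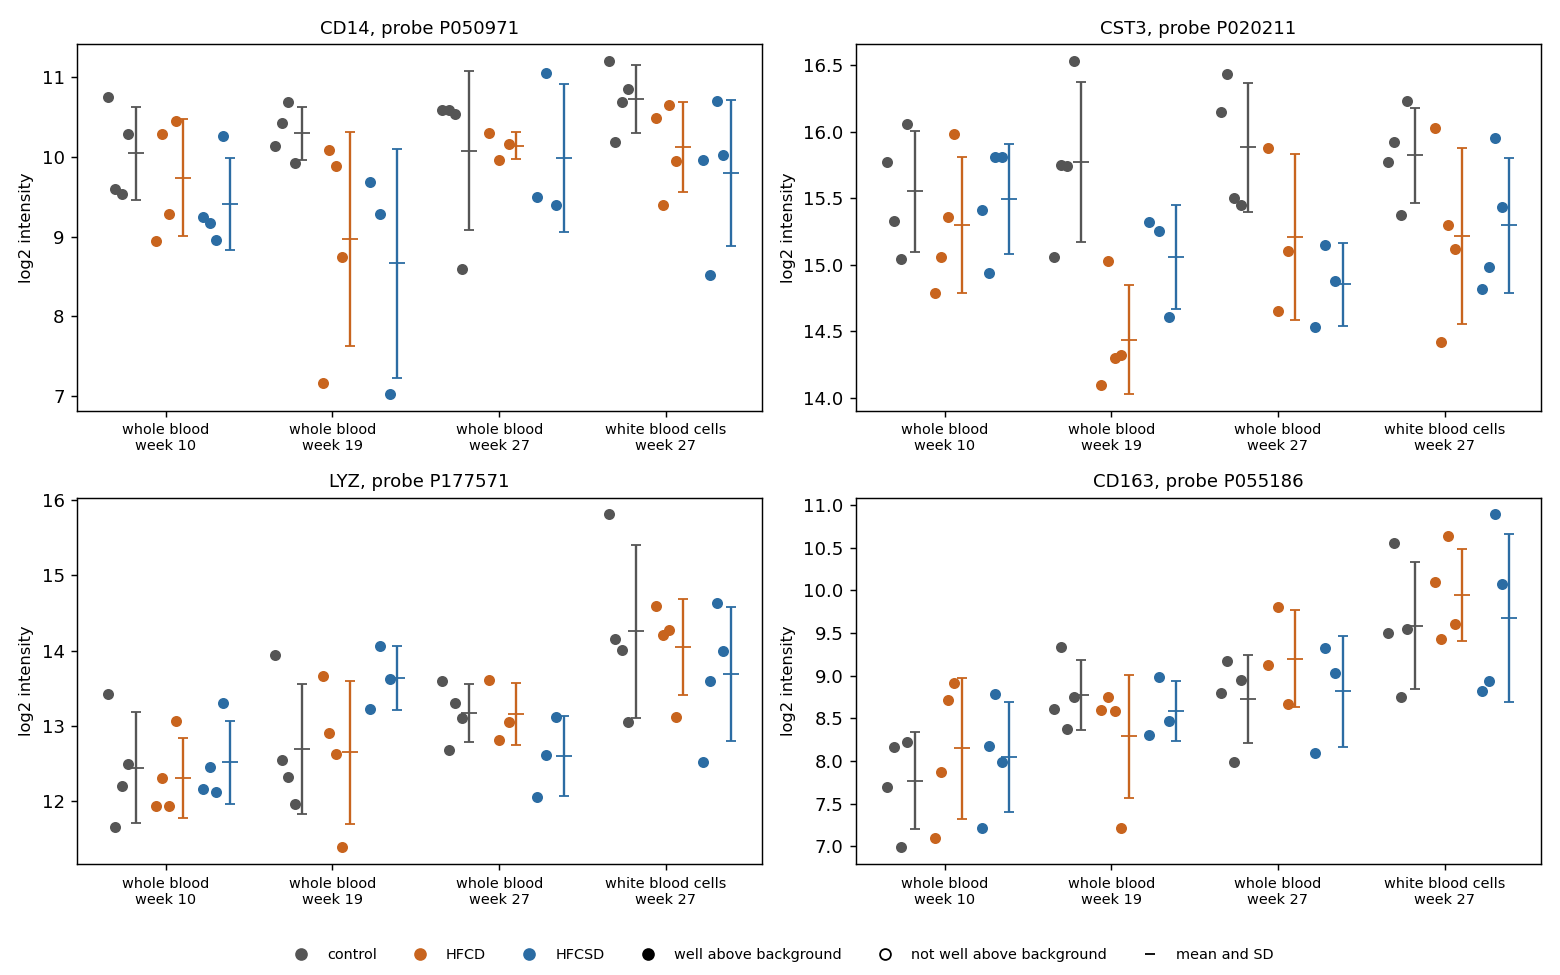
Log2 intensity of 1 probe each of CD14, CST3, LYZ and CD163 on every array, by sample type, week and diet (colour), with the group mean and SD beside the points. The CD14 level of HFCD array 1 and HFCSD array 3 at week 19 (7.17 and 7.03) and of control array 4 at week 27 (8.59) lies apart from the others, and in CST3 the 4 HFCD arrays at week 19 (14.10 to 15.03) lie below the 4 control arrays (15.06 to 16.53).

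LYZ encodes lysozyme, which breaks bacterial cell walls and is among the most abundant proteins of monocytes and granulocytes. Its single probe was detected on all arrays, with a lowest, median and highest level of 11.39, 12.68 and 14.06 in whole blood and 12.52, 14.08 and 15.81 in white blood cells. In whole blood at week 19 it was at 13.94, 12.55, 12.32 and 11.96 in control, 13.67, 12.91, 12.63 and 11.39 in HFCD and 13.22, 14.06 and 13.63 in HFCSD arrays. The HFCSD arrays were above the control mean, but control array 1 lay among them, and the difference was 0.94 (-0.27 to 2.15, limma adjusted p = 0.509). At week 27 the difference for HFCSD was -0.58 (-1.28 to 0.13, adjusted p = 0.227), and for HFCD it was -0.04 at week 19 and -0.02 at week 27. With scan day as a block the differences at week 19 were -1.29 for HFCD and -0.31 for HFCSD (adjusted p = 0.795 and 0.861), values that rest on control array 1 alone, the highest control.

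LYZ in white blood cells was at 15.81, 14.15, 14.01 and 13.05 in control, 14.59, 14.21, 14.27 and 13.12 in HFCD and 12.52, 13.60, 14.63 and 14 in HFCSD arrays. The highest value was that of control array 1, a white blood cell array low in HBE1, and the groups overlapped. Against whole blood of the same week, at 13.60, 12.68, 13.31 and 13.10 in control arrays, the log2 difference was 1.08 (0.06 to 2.11, a ratio of 2.12), which did not pass (limma adjusted p = 0.0788). It was 0.89 in HFCD and 1.09 in HFCSD pigs (adjusted p = 0.172 and 0.0833). With each array scaled to its 75th percentile instead of quantile normalization, the differences of 1.06, 1.05 and 1.05 passed (adjusted p = 0.0226, 0.0319 and 0.0305), and with the replicate number as a block quantile values of 1.08, 1.20 and 0.99 passed (adjusted p = 0.0219, 0.0264 and 0.049). The call thus depended on the scaling and on the model.

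FCGR1A is the high-affinity receptor for immunoglobulin G, and its transcript is known to be induced by interferon in monocytes. Its single probe, shown because at weeks 10 and 19 it was detected on some HFCD and HFCSD arrays and on no control array, was dim in whole blood.
FCGR1A P302844: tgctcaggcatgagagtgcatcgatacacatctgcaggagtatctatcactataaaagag
At week 10 it was detected on 0 of 4 control arrays, whose levels of 1.47, 1.49, 1.47 and 1.51 are background, on 3 of 4 HFCD arrays (7.07, 2.77, 5.17 and 4.53, array 2 not detected) and on 2 of 4 HFCSD arrays (3.43, 5.01, 4.08 and 2.74, arrays 2 and 3 detected). Every diet array read above every control array, but the probe did not enter the test, since it was detected on all arrays of no group. The share of detected spots was 35.4% to 43.4% in control and 43.1% to 53.3% in HFCD arrays, with HFCD array 2 the lowest of its group. In HFCSD arrays it was 37.1% to 48.1%, with array 2, which detected FCGR1A, the lowest. The part of this share in the readings was not tested.

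Where a probe was detected on no array of a group, only a bound can be given. It sets the mean of the brighter group against the mean, over the arrays of the dimmer group, of the lowest signal among detected probes or the probe's own signal, whichever was higher. By this bound FCGR1A was at least 1.64-fold higher in HFCD than in control arrays at week 10, and for HFCSD no fold can be given. With no filter on dim probes neither diet passed.

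At week 19 FCGR1A was again detected on 0 of 4 control arrays (3.70, 1.55, 1.54 and 1.73), on 3 of 4 HFCD arrays (7.07, 4.17, 6.69 and 4.87, array 2 not detected) and on 2 of 3 HFCSD arrays (4.39, 6.88 and 4.42, array 3 not detected). All diet arrays read above all control arrays. The bound was at least 4.14-fold for HFCD and at least 2.99-fold for HFCSD, and with no filter neither passed. Control array 1, scanned on the same day as the diet arrays, had the highest control reading, 3.70, and the lowest diet reading was 4.17.

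At week 27 FCGR1A was detected on 1 of 4 control arrays (4.05, 3.15, 2.50 and 1.62, array 1 detected), on 3 of 3 HFCD arrays (5.09, 5.03 and 5.86) and on 1 of 3 HFCSD arrays (3.13, 4.27 and 5.37, array 3 detected). The HFCD arrays were all above the control arrays, and the HFCSD arrays overlapped with them. The probe was tested for HFCD only: the log2 difference was 2.50 (1.16 to 3.83, higher in 3 of 3 arrays, unadjusted p = 0.00181), which did not pass (limma adjusted p = 0.893), nor did its adjusted p under any alternative tried. At the methods' own threshold, unadjusted with a fold over 2, 1 member probe passed in this comparison. FCGR1A was the only member tested there whose difference exceeded that fold. It entered through the HFCD group, where it was high. With normexp background correction, which adds an offset of 50 to every intensity, the difference was 0.55, so its size depends on the treatment of the background.

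FCGR1A in white blood cells was detected on all 12 arrays, at 6.05, 6.04, 6.58 and 4.07 in control, 6.37, 9.04, 7.06 and 7.29 in HFCD and 5.41, 7.64, 6.50 and 6.78 in HFCSD arrays. HFCD array 2, the array low in HBE1 and PF4, was the highest of all, and the HFCD range began within the control range. The log2 difference was 1.75 for HFCD (0.32 to 3.18, unadjusted p = 0.0205, limma adjusted p = 0.983) and 0.90 for HFCSD (adjusted p = 0.644). Without control array 1 and HFCD array 2 it was 1.34 for HFCD (unadjusted p = 0.0704, adjusted p = 0.963). The mean was above control under both diets in all 3 weeks and in white blood cells, and none of these differences passed. The comparisons of a week share their control arrays.

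**Figure D2:**
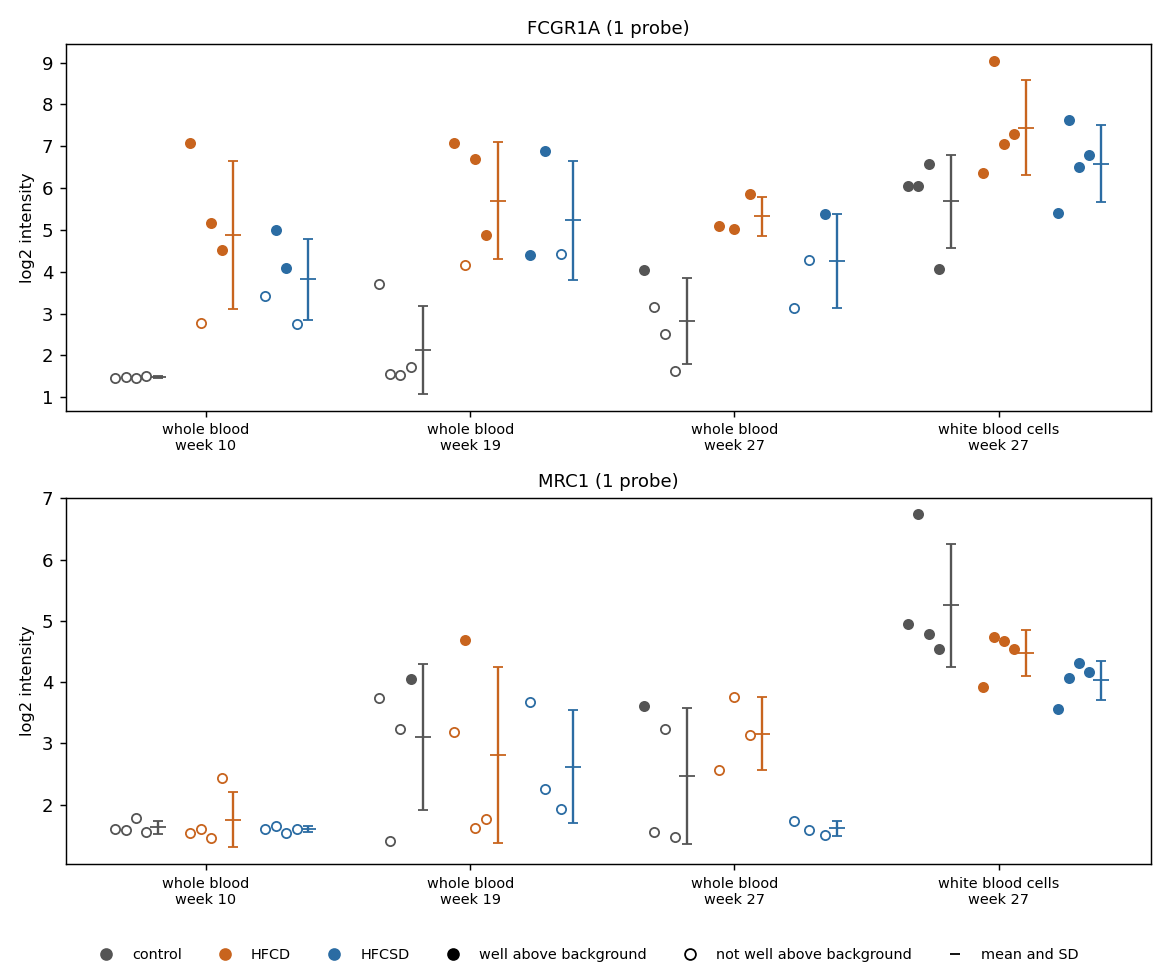
Log2 intensity of FCGR1A (above) and MRC1 (below) on every array, by sample type, week and diet (colour). Filled points were well above background and open points were not, and the bars give the group mean and SD. FCGR1A was detected on none of the control arrays at weeks 10 and 19, and MRC1 on 3 of 33 whole blood arrays and on all 12 white blood cell arrays.

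CD163 is the scavenger receptor that takes up hemoglobin bound to haptoglobin, and it is found on monocytes and tissue macrophages. It had 9 probes. P055186, P160596 and P177981 were detected on all 45 arrays and moved together, with Pearson r between 0.94 and 0.97 over the 33 whole blood arrays. P055186 and P160596 share 32 bases with 1 mismatch (A34G, counted from the 5′ end of P055186), so they are not independent. P177981 was at 8.14, 8.26, 6.88 and 8.64 in control, 7.52, 7.99, 8.94 and 9.20 in HFCD and 7.61, 8.42, 8.83 and 8.29 in HFCSD arrays of whole blood at week 10. The groups overlapped here and at weeks 19 and 27.

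No CD163 probe passed between diets. P304849 had the lowest p: at week 19 it was at 4.93, 6.13, 5.98 and 6.14 in control and at 5.63, 4.99, 4.93 and 3.84 in HFCD arrays, the last not detected. Of the HFCD arrays 3 lay near or below the lowest control array and 1 among the controls, and the difference was -0.95 (-1.80 to -0.10, unadjusted p = 0.0317, limma adjusted p = 0.355). With scan day as a block it was -0.09 (adjusted p = 0.967), a value that sets the HFCD arrays against control array 1 alone, the lowest control.

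By feeding time, the mean of CD163 P055186 in whole blood was 7.77 (0.57), 8.15 (0.83) and 8.04 (0.65) in control, HFCD and HFCSD arrays at week 10 and 8.73 (0.51), 9.20 (0.57) and 8.82 (0.65) at week 27. Week 27 was higher on average under each diet, by 0.96 in control and 1.05 in HFCD pigs on the log2 scale, short of the threshold (limma adjusted p = 0.0972 and 0.171). P160596 gave 0.98 and 0.92 (adjusted p = 0.0874 and 0.236), and P304849 gave 1.2 in control pigs (adjusted p = 0.0636). Without control array 3 of week 27, P160596 and P304849 passed in control pigs at 1.24 and 1.48 (adjusted p = 0.0469 and 0.0371), and P304849 also passed without control array 4 of week 10 (1.58, adjusted p = 0.0235) and without HFCD array 1 of week 19, which shares the fit (1.2, adjusted p just under the threshold). Leaving out 1 array also went the other way: P160596 fell as low as 0.65 in control and 0.57 in HFCD pigs.

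Between white blood cells and whole blood, the CD163 probes differed from each other. P018171 and P170001, shown because they were higher in white blood cells while brighter probes of the gene were not called in control pigs, are dim in whole blood.
CD163 P018171: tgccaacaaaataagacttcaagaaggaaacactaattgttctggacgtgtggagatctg
CD163 P170001: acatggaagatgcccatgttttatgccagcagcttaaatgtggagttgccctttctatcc
P018171 in control pigs was at 6.08, 7.11, 5.33 and 6.34 in white blood cells and at 3.57, 4.94, 4.06 and 4.20 in whole blood, the last not detected. The ranges did not overlap, and the log2 difference was 2.02 (0.69 to 3.35, a ratio of 4.05, limma adjusted p = 0.0145). In whole blood of HFCD and HFCSD pigs the probe was detected on 2 of 3 and 1 of 3 arrays, so sizes there are not exact. The difference was 2.26 in HFCD and 2.52 in HFCSD pigs (limma adjusted p = 0.0112 and 0.00429). These calls were lost without white blood cell control array 2 (1.72, adjusted p = 0.0531), without whole blood HFCD array 3 (1.63, adjusted p = 0.0865) and without whole blood HFCSD array 1 (1.53, adjusted p = 0.0554). The methods' t-test lost the HFCD and HFCSD calls at an unchanged 2.26 and 2.52 (adjusted p = 0.0575 and 0.0882). The share of detected spots as a covariate lost the HFCSD call at 2.55 (limma adjusted p = 0.0511). With normexp the differences were 0.77, 0.89 and 0.76 in control, HFCD and HFCSD pigs and passed (limma adjusted p = 0.0121, 0.00789 and 0.0162).

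CD163 P170001, detected on 1 of 4 whole blood control arrays, was tested between sample types in control pigs only and was higher by 1.61 (limma adjusted p = 0.0044). With no filter it passed in HFCD pigs too (1.52, adjusted p = 0.0231, 1 of 3 whole blood arrays detected) and not in HFCSD pigs (0.68, adjusted p = 0.302, 0 of 3 detected), so these sizes are against background. P119126, detected on 1 of the 45 arrays, then passed as lower in HFCSD pigs (-1.45, adjusted p = 0.0332), where it was detected on no array of either sample type. The bright probe P160596 differed by 0.95 and 0.76 in control and HFCD pigs, which did not pass, and by 1.13 in HFCSD pigs (0.14 to 2.12, a ratio of 2.19, adjusted p = 0.0464). That call was lost in 11 of 22 fits with 1 array left out, the value being 0.78 without whole blood HFCSD array 1 (adjusted p = 0.226) and 0.77 without white blood cell HFCSD array 3 (adjusted p = 0.165). It was also lost with the replicate number, the slide or the share of detected spots in the model (1.01, 1.12 and 1.19, adjusted p = 0.0714, 0.0501 and 0.179). At an unchanged 1.13 it was lost with only the groups compared, with no filter and with the methods' t-test (adjusted p = 0.0815, 0.0832 and 0.167). With the 75th percentile P160596 passed in control, HFCD and HFCSD pigs (1.20, 1.14 and 1.47, adjusted p = 0.0299, 0.0492 and 0.0132). P055186 differed by 0.86, 0.74 and 0.86 and did not pass, but with the 75th percentile it passed in HFCSD pigs (1.21, adjusted p = 0.0471). P177981 differed by 0.79, 0.60 and 0.75 and P304849 by -0.17, -0.03 and -0.19 in control, HFCD and HFCSD pigs, and neither passed. A probe left out because its description reads CD163 antigen-like, P422674, was lower in white blood cells, by -2.09 in HFCD and -2.21 in HFCSD pigs (adjusted p = 0.00352 and 0.00168), the other way from the CD163 probes that passed. Over feeding time P422674 was lower at week 27 than at week 10 in control pigs (-1.85, limma adjusted p = 0.0348). In HFCD and HFCSD pigs it differed by -0.93 and -1.18 and did not pass.

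MRC1, the macrophage mannose receptor, marks tissue macrophages and dendritic cells more than blood monocytes. In whole blood its probe was detected on 3 of 33 arrays, and at week 10 on none, with levels from 1.46 to 2.43. In white blood cells it was detected on all arrays, at 4.95, 6.74, 4.79 and 4.54 in control, 3.92, 4.74, 4.67 and 4.55 in HFCD and 3.57, 4.07, 4.32 and 4.16 in HFCSD arrays. The 4 control arrays all lay above the 4 HFCSD arrays, with control array 2 far above the rest. The difference was -1.22 for HFCSD (-2.12 to -0.32, lower in 4 of 4 arrays, unadjusted p = 0.0121), which did not pass (limma adjusted p = 0.344), and -1.32 without the 2 arrays low in HBE1 (adjusted p = 0.219). Leaving out 1 array gave -1.46 to -0.73 and other settings -1.36 to -0.35, and none of these passed.

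Against whole blood at week 27, where it was detected on 1 of 4 control arrays and on no HFCD or HFCSD array, MRC1 passed in control pigs (limma adjusted p = 0.000106), with a log2 difference of 2.78 over readings that were mostly background. It also passed in HFCD pigs, at least 1.99-fold (1.32 against background, adjusted p = 0.0401), and in HFCSD pigs (2.42 against background, adjusted p = 0.000573), where the bound gives no fold. The HFCD call was lost without white blood cell HFCD array 2, 3 or 4 (1.23, 1.25 and 1.29, adjusted p = 0.0815, 0.0779 and 0.0668), without whole blood HFCD array 1 or 3 (1.02 and 1.31, adjusted p = 0.153 and 0.0876) and with the 75th percentile (1.22, adjusted p = 0.0609). It was also lost with the replicate number as a block, all 45 arrays in 1 fit and no filter (adjusted p = 0.0963, 0.0634 and 0.0805), and the HFCSD call with the share of detected spots as a covariate (1.70, adjusted p = 0.0619). With normexp the differences were 0.51 in control (adjusted p = 0.0101), 0.15 in HFCD (adjusted p = 0.451) and 0.20 in HFCSD pigs (adjusted p = 0.298), so that the last 2 calls did not hold under this background correction. The 75th percentile gave 1.41 in HFCSD pigs.

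CST3 encodes cystatin C, a secreted inhibitor of cysteine proteases such as cathepsins, and it is strongly transcribed in monocytes and dendritic cells. Both of its probes were detected on all 45 arrays and had r = 0.89 with each other over the whole blood arrays. P020211 was at 15.06, 15.75, 15.74 and 16.53 in control, 14.10, 15.03, 14.30 and 14.32 in HFCD and 15.32, 15.25 and 14.61 in HFCSD arrays of whole blood at week 19. All HFCD arrays lay below all control arrays, and the highest of them lay just below control array 1, the control scanned on their day. The log2 difference was -1.34 (-2.06 to -0.61, lower in 4 of 4 arrays, unadjusted p = 0.00185), which did not pass (limma adjusted p = 0.171), and P035716 gave -1.34 as well (-2.45 to -0.22, adjusted p = 0.321).

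The week 19 difference of CST3 varied between settings. With scan day as a block it was -0.63 for P020211 and -0.86 for P035716 (limma adjusted p = 0.824 and 0.849), where the day shared by both groups held 1 control array. With all 45 arrays in 1 fit, P020211 passed at an unchanged -1.34 (adjusted p = 0.0236). With each array of the week left out in turn P020211 stayed between -1.57 and -1.08, and P035716 lay between -1.70 and -0.88. HFCSD gave -0.71 (-1.50 to 0.07, adjusted p = 0.45), and with the block -0.01 for P020211 and -0.24 for P035716 (adjusted p = 0.997 and 0.912).

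At week 27 CST3 P020211 was at 16.15, 16.43, 15.50 and 15.45 in control, 15.88, 14.65 and 15.10 in HFCD and 14.53, 15.15 and 14.88 in HFCSD arrays of whole blood. The HFCSD arrays all lay below the control arrays, and the HFCD arrays overlapped with them. The difference for HFCSD was -1.03 (-1.80 to -0.26, lower in 3 of 3 arrays, unadjusted p = 0.0133), which did not pass (limma adjusted p = 0.0769). It was -0.60 with the 75th percentile scaling (adjusted p = 0.158) and -0.37 with the share of detected spots as a covariate (adjusted p = 0.612), a share that was itself lower in the HFCSD arrays. P035716 gave -0.45 (adjusted p = 0.465). For HFCD the difference was -0.67 (adjusted p = 0.928), and in white blood cells it was -0.61 and -0.53 for HFCD and HFCSD (adjusted p = 0.997 and 0.595). CST3 P020211 was on average below control in all 8 comparisons of a diet with control, and 0 of them passed in limma. The 2 diets share control arrays each time, and pigs recur across weeks and sample types. The 8 signs are therefore not independent.

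Between sample types CST3 was level: P020211 differed by -0.06, 0.01 and 0.44 and P035716 by 0.01, -0.13 and 0.21 in control, HFCD and HFCSD pigs (limma adjusted p between 0.32 and 0.991). With the 75th percentile P020211 differed by -0.46, -0.16 and -0.23, so that its sign under HFCD and HFCSD rested on the scaling.

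CD68 encodes macrosialin, a glycoprotein of late endosomes and lysosomes. Its 3 probes match clusters of transcripts described as CD68 and not a RefSeq entry, and they did not move together: P231802 and P295799, detected on all arrays, had r = -0.04 over the whole blood arrays. P295799 was at 9.28, 8.62, 9.03 and 9.99 in control and 9.90, 9.52, 10.32 and 10.28 in HFCD arrays at week 10. All HFCD arrays were above the control mean, within an overlap with control array 4, and the difference was 0.77 (0.07 to 1.48, unadjusted p = 0.0336, limma adjusted p = 0.466). At week 27 it was 0.65 for HFCD in whole blood and 0.65 in white blood cells (unadjusted p = 0.0431 and 0.0126, adjusted p = 0.893 and 0.965).

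CD68 P295799 in white blood cells was at 10.16, 9.83, 9.54 and 9.99 in control and at 10.36, 10.87, 10.65 and 10.24 in HFCD arrays, which lay above all control arrays. By feeding time P295799 differed by 0.78 in control, 0.66 in HFCD and 0.81 in HFCSD pigs between week 27 and week 10 (limma adjusted p = 0.0565, 0.235 and 0.0963). In control pigs it passed with the 75th percentile (0.92, adjusted p = 0.033), without control array 4 of week 10 (1.03, adjusted p = 0.0192) and without control array 3 of week 27 (0.97, adjusted p = 0.0288). It also passed there at 0.78 without HFCSD array 2 of week 10 (adjusted p = 0.0441) or HFCD array 1 of week 19, which share the fit. At the same 0.78 it passed with the replicate number as a block and with all 45 arrays in 1 fit (limma adjusted p = 0.041 and 0.0384). In HFCSD pigs it passed without HFCSD array 2 of week 10 (1.04, adjusted p = 0.0367). P231802 differed the other way in HFCSD pigs, by -0.62 (adjusted p = 0.102), and by -0.84 to -0.33 with 1 array left out.

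The third CD68 probe, P117241, gave the largest sample type difference among the members. In white blood cells it was at 7.90, 7.39, 7.10 and 6.46 in control, 7.71, 7.96, 6.89 and 7 in HFCD and 6.97, 7.84, 8.15 and 8.05 in HFCSD arrays. In whole blood of the same week it was at 3.48, 4.37, 4.34 and 2.34 in control, 4.25, 2.42 and 3.72 in HFCD and 1.57, 3.01 and 2.82 in HFCSD arrays, detected on 3 of 4, 1 of 3 and 0 of 3. The ranges were far apart under each diet. The log2 difference was 3.58 in control (2.57 to 4.59, a ratio of 12, limma adjusted p = 1.02e-05) and 3.93 in HFCD pigs (2.84 to 5.01, adjusted p = 1.05e-05). The latter is mostly against background, so its size is not exact. In HFCSD pigs, with no whole blood array detected, it passed (adjusted p = 4.45e-07) and only the bound of at least 11-fold can be given.

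The 2 bright CD68 probes did not follow P117241. P231802 differed by -0.34, -0.07 and 0.37 and P295799 by -0.13, -0.14 and -0.06 between white blood cells and whole blood, and none passed. With the 75th percentile they differed by 0.00, 0.36 and 0.68 and by 0.15, 0.27 and 0.28, where P231802 passed in HFCSD pigs (limma adjusted p = 0.0145), so that the sign of P295799 rested on the scaling under all 3 diets. With normexp P117241 differed by 1.53 in control and 1.62 in HFCD pigs, and both passed (adjusted p = 3.57e-05 and 5.14e-05).

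VCAN encodes versican, a large chondroitin sulfate proteoglycan that classical monocytes transcribe. P341308 was detected on 21 of 33 whole blood and 12 of 12 white blood cell arrays, and the other probe, taken from an expressed sequence tag named CSPG2, on none. At week 27 P341308 was at 5.51, 5.92, 2.96 and 4.84 in control, 5.50, 5.81 and 4.90 in HFCD and 2.75, 5.10 and 5.39 in HFCSD arrays of whole blood. The lowest control and HFCSD arrays were not detected, and the groups overlapped. White blood cells differed by 0.90, 0.52 and 1.42 in control, HFCD and HFCSD pigs, and none passed (limma adjusted p = 0.215, 0.514 and 0.0589), though with normexp 0.50 passed in HFCSD pigs (adjusted p = 0.0398), and week 27 differed from week 10 by 1.52 in HFCD pigs (adjusted p = 0.171).

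Of the genes called between sample types, FCGR1A and CD14 remain to be described. In control pigs FCGR1A, detected on 1 of 4 whole blood arrays, was higher by 2.85 (limma adjusted p = 0.00157) and CD14 P088666 by 2.61 (0.94 to 4.28, a ratio of 6.10, adjusted p = 0.0121). The latter was 1.39 without whole blood control array 4 (adjusted p = 0.0261), where P088666 read 1.47 against 6.16, 6.26 and 6.57 on the other controls. The call was lost with only the groups compared in the fit and with the methods' t-test (adjusted p = 0.0598 and 0.15). CD14 P050971 on the same transcript differed by 0.65 (-0.37 to 1.67, adjusted p = 0.291). In HFCD and HFCSD pigs P088666 differed by 1.47 and 0.50 and P050971 by -0.02 and -0.18, and none passed. With the 75th percentile P050971 differed by 0.41 and 0.13, so that its sign under these diets rested on the scaling.

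FCGR1A was also higher in white blood cells of HFCD pigs, by 2.11 (0.63 to 3.59, limma adjusted p = 0.0195), and of HFCSD pigs, by 2.32 (0.84 to 3.80, adjusted p = 0.00889). In HFCD pigs it was detected on all arrays of both sample types, so this call did not come from the filter. It was lost without white blood cell HFCD array 2 (1.58, adjusted p = 0.072) and without whole blood HFCD array 1 or 2 (1.99 and 1.96, adjusted p = 0.0544 and 0.0711). In HFCSD pigs it was lost without whole blood HFCSD array 1 (1.76, adjusted p = 0.0702) and with the share of detected spots as a covariate (1.00, adjusted p = 0.412). The methods' t-test lost both calls (adjusted p = 0.0714 and 0.0561). With normexp the differences were 0.84, 1.27 and 1.00 in control, HFCD and HFCSD pigs and passed (adjusted p = 0.0443, 0.00684 and 0.0223).

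**Figure D3:**
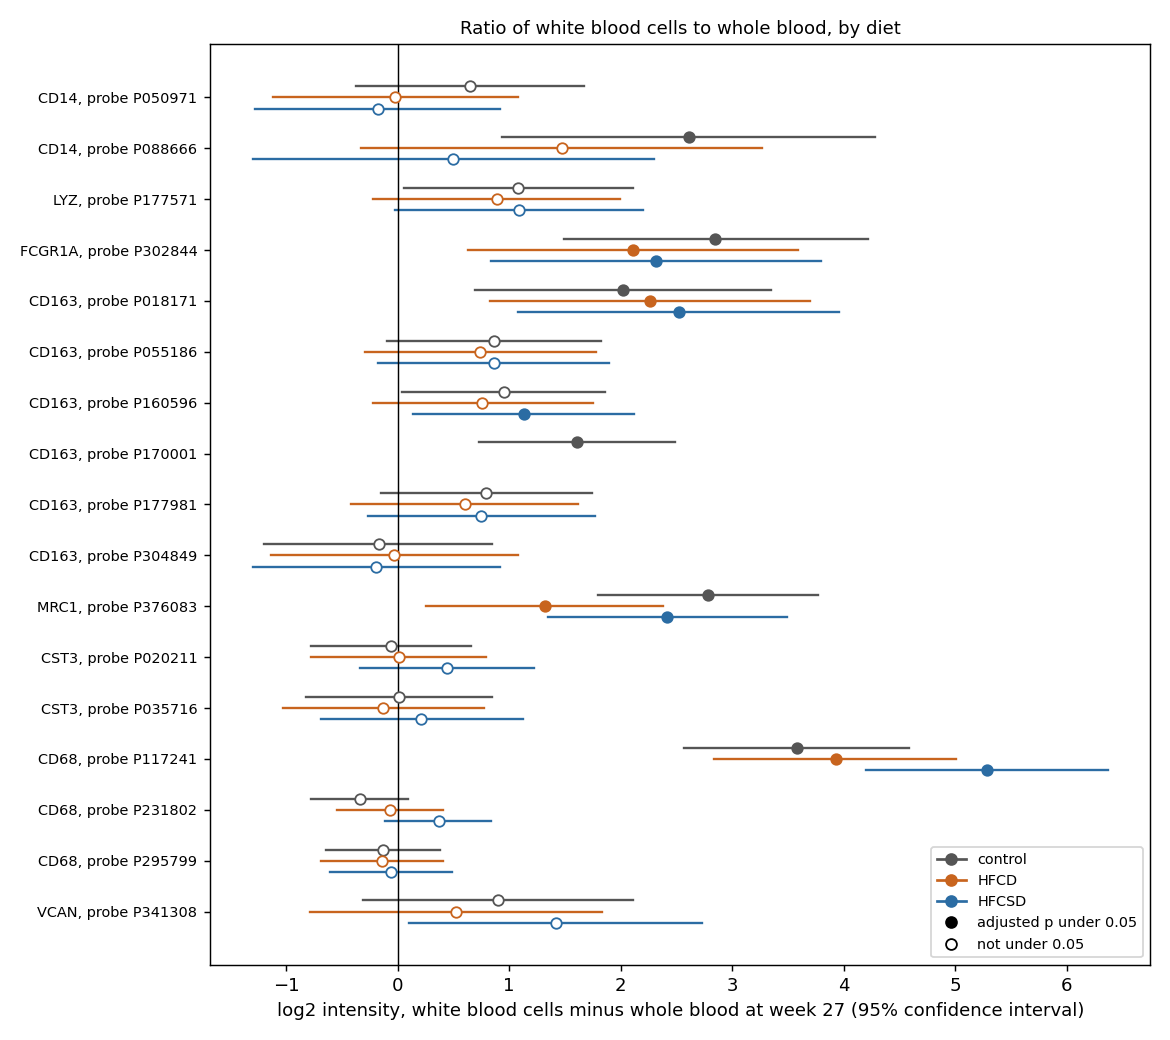
Log2 difference between white blood cells and whole blood at week 27 for each member probe tested, by diet (colour), with 95% confidence intervals. Filled points had an adjusted p under 0.05. CD68 P117241 differs most (3.58 in control pigs, 3.93 mostly against background in HFCD pigs, and against background in HFCSD pigs), while both CST3 probes and the other CD68 probes lie near 0.

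These differences stand on a shift of the whole array. The median log2 difference over all probes tested was 0.17, 0.19 and 0.42 in control, HFCD and HFCSD pigs with quantile normalization and 0.30, 0.38 and 0.50 with the 75th percentile. Relative to the median, FCGR1A was at 2.69, 1.92 and 1.90, CD68 P117241 at 3.41 and 3.74 in control and HFCD pigs, and in all 3 diets LYZ at 0.91, 0.70 and 0.67 and CST3 P020211 at -0.23, -0.18 and 0.02. With the 75th percentile the values were 2.54, 1.83 and 1.54 for FCGR1A, 3.41 and 3.67 for CD68 P117241, 0.76, 0.67 and 0.54 for LYZ and -0.77, -0.54 and -0.73 for CST3 P020211. The median over the member probes tested was 0.90, 0.67 and 0.81.

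How a probe entered the test bore on its result. In control pigs 7 member probes were detected on all arrays of white blood cells only, and 6 of them were higher, while of all probes of that kind 56.7% were higher. Of the 10 members detected throughout in both sample types 0 passed, where 21.2% of all such probes were higher and 19.2% lower. In HFCD pigs it was 3 of 3 against 65.3% and 1 of 13 against 25.4%, and in HFCSD pigs 4 of 5 against 68.2% and 1 of 11 against 30.4%. With only probes detected on every array, 0, 1 and 1 member probes passed, FCGR1A in HFCD and CD163 P160596 in HFCSD pigs.

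Probe position went along with the ratio across the array. Among RefSeq transcripts with probes that start at least 500 bases apart, the probe with the lower start was relatively higher in white blood cells in 114 of 167 in control pigs (68.3%), 113 of 166 in HFCD pigs (68.1%) and 103 of 173 in HFCSD pigs (59.5%). The median log2 difference between such probes was 0.67, 0.57 and 0.34. With only probes detected on every array of the comparison, it was 65 of 100 (65%), 78 of 121 (64.5%) and 60 of 107 (56.1%). The medians were then 0.47, 0.43 and 0.20. The CD14 probes had the order of lower start and higher ratio, P088666 at base 536 against P050971 at base 1296. In CD163, P018171 at base 2756 was above P177981 at base 3336. P170001 at base 1819 read 1.61 against 2.02 for P018171 in control pigs. Since its value is against background, these 2 probes cannot be put in order. The part of probe position in the results was not tested.

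The difference of the ratio between diets was tested directly. Limma passed 0 of 17 member probes for HFCD against control, beside 0% of all probes, and 0 of 17 for HFCSD against control, beside 1.38%. An unadjusted p under 0.05 was reached by 1 and 2 member probes, beside 267 of 20070 and 3921 of 20376 of all probes. No form of the methods' t-test fits this contrast. The member probes were MRC1 for HFCD and CD68 P117241 for HFCSD, for which no size is given because whole blood of that diet had no detected array, and CD68 P231802 for HFCSD, at 0.71 (adjusted p = 0.22). Leaving out 1 array moved P231802 to between 0.42 and 0.93, and it did not pass. Of all probes 82 were higher and 199 lower for HFCSD, and with the 75th percentile 14 were higher and 72 lower. A member that passed between sample types under 1 diet and not another, such as CD14 P088666, was therefore not shown to differ between diets.

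Without the 2 white blood cell arrays low in HBE1, 6 member probes passed between sample types in control pigs, 2 in HFCD pigs and 5 in HFCSD pigs. The share of all probes for this choice is not given, so no weight is put on these counts. In HFCD pigs FCGR1A and MRC1 no longer passed (1.58 and 1.23, limma adjusted p = 0.0756 and 0.0851). In HFCSD pigs, whose own arrays were all kept, CD163 P160596 did not pass (1.13, adjusted p = 0.0501) and LYZ did (1.09).

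Markers of other blood cells were read beside these results. The summed level of the T cell list was 12.89 (0.14), 12.80 (0.36) and 12.68 (0.27) in whole blood of control, HFCD and HFCSD pigs at week 27 and 13.40 (0.36), 13.50 (0.38) and 13.63 (0.21) in white blood cells, ratios of 1.42, 1.63 and 1.94. The ratio was 1.16, 1.16 and 1.43 for the 8 monocyte genes, 1.07, 1.46 and 1.31 for neutrophils, 0.797, 0.767 and 0.928 for NK cells and 1.09, 0.760 and 0.910 for platelets. The single probes did not always go with the sum: 2 of 3 NK cell probes were higher in white blood cells under each diet, and of 3 neutrophil probes 0 were higher and 1 was lower. Of the T cell probes 9, 6 and 9 of 12 were higher in white blood cells, beside 24.4%, 25.5% and 37.1% of all probes. T cell genes thus moved in the same direction as the monocyte probes that passed. The platelet list spread most within white blood cells, from 10.31 to 15.95 in control and from 9.53 to 15.27 in HFCD arrays. Their part in the result was not tested.

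In the comparisons between diets, 0 probes of the T cell, NK cell and neutrophil lists passed in limma, and 1 of 6 platelet probes passed, higher in HFCSD whole blood at week 27, where the median over the 6 was lower than that over all probes (-0.21). The summed level of the monocyte genes, whose brightest probe is of CST3, was 16.30 (0.42) in control, 15.27 (0.34) in HFCD and 15.83 (0.32) in HFCSD whole blood at week 19, and 16.39 (0.43), 15.92 (0.52) and 15.56 (0.38) at week 27. At week 19 the summed platelet level was 13.95 (0.26), 13.12 (1.47) and 13.48 (0.84) and the summed neutrophil level 13.89 (0.22), 13.66 (0.23) and 13.28 (0.82). The T cell sum went the other way, 12.82 (0.14), 13.12 (0.52) and 13.21 (0.18). For each diet 6 of 11 T cell probes had an unadjusted limma p under 0.05, beside 2072 of 16613 (HFCD) and 2041 of 17177 (HFCSD) of all probes. The T cell medians were 0.66 and 0.75, beside -0.03 and 0.04 over all probes. HFCD array 1 had the highest T cell sum, 13.86, and the other HFCD arrays, at 12.69, 12.85 and 13.08, overlapped with control. Their part in the results of CD14 and CST3 was not tested.

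Over feeding time, the member probes with an unadjusted p under 0.05 were of CD163, CD68 and VCAN, and their values are given with those genes. In the same comparison 5 of 11, 3 of 12 and 2 of 11 T cell probes were lower at week 27 in control, HFCD and HFCSD pigs, beside 8.52%, 3.9% and 6.68% of all probes. Among them was CD3D, by -1.76 in control, -1.62 in HFCD and -1.18 in HFCSD pigs. NK cell probes had medians of 1.42, 0.97 and 0.89. Of these 1 of 2, 1 of 3 and 0 of 3 were higher, beside 12.2%, 1.71% and 3.66% of all probes. The part of T cell and NK cell genes in the member values was not tested. In the order of the 9 whole blood group means, at most 1 of 8 neighbouring pairs lay apart by more than the larger SD for any member probe.

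A list of 60 other monocyte and macrophage genes had 38 genes and 68 probes on the array, with the brightest probe of FTH1, a ferritin chain. Between diets this list had 0 probes passing except for HFCSD at week 27 in whole blood, where 2 were higher and 5 lower of 55, beside 6.78% higher and 3.87% lower of all probes. GRN, the precursor of granulins, was higher by 1.67 (limma adjusted p = 0.0195), and 2 probes of LGALS3, the lectin galectin-3, were lower, by -1.04 and -1.01 (adjusted p = 0.0241 and 0.0243). Neither gene passed at weeks 10 or 19; the LGALS3 probe with the lowest p for HFCD at week 19 differed by -1.98 (adjusted p = 0.117), and CD36, a scavenger receptor for oxidised lipoproteins, differed by -1.14 for HFCD at week 10 (adjusted p = 0.216).

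Between sample types the same list went both ways. White blood cells had 19 probes higher and 8 lower of 58 in control pigs, 19 and 11 in HFCD pigs and 20 and 12 in HFCSD pigs, and the lower probes were of 2, 3 and 4 genes. Of all probes 24.4%, 25.5% and 37.1% were higher and 20.9%, 22% and 21.6% lower. SPP1, the cytokine osteopontin, was higher by 2.84 and CTSB, the protease cathepsin B, by 2.85 in control pigs (limma adjusted p = 1.38e-05 and 2.13e-05), while FTL, the light chain of ferritin, was lower by -2.57 (adjusted p = 1.2e-05). FTH1 was lower by -1.09 in HFCD and -1.28 in HFCSD pigs. The summed level of the list was lower in white blood cells, with ratios of 0.726, 0.646 and 0.618. The median log2 difference over its probes was 0.56, 0.44 and 0.39, beside 0.17, 0.19 and 0.42 over all probes.

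At week 27 against week 10 in whole blood, LY96, the partner of toll-like receptor 4 in lipopolysaccharide sensing, rose in control, HFCD and HFCSD pigs by 2.51, 1.79 and 1.40 (limma adjusted p = 0.000175, 0.0181 and 0.0458), where scan day cannot be told apart from week. CTSB fell in the same pigs, with log2 differences of -2.49, -2.07 and -1.93 (adjusted p = 0.000923, 0.0214 and 0.0217). CD14, which acts with LY96, did not pass in any of these comparisons. Of the list, 8 probes were higher and 6 lower of 55 in control, 1 and 1 of 56 in HFCD and 2 and 1 of 54 in HFCSD pigs. Of all probes 12.2%, 1.71% and 3.66% were higher and 8.52%, 3.9% and 6.68% lower.

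Across the 33 whole blood arrays, the brightest probes of the member genes were only loosely related. CD14 and CST3 had the highest Pearson r of the 10 pairs, 0.57 (Spearman rho 0.56), and 0.44 without the 2 arrays farthest from the CD14 median. Within groups r was 0.53, and over the 12 white blood cell arrays 0.68. CD14 and LYZ had r = 0.00 (rho 0.19), but 0.38 without those 2 arrays and 0.42 over the white blood cell arrays. The r was for CD163 and LYZ 0.36, CD163 and CST3 0.25 and CD68 and CST3 0.33. The arrays share groups, scan days and cell makeup, and these values are descriptions.

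The genes whose pattern was nearest to each member were taken among 1361 probes with a gene symbol that were detected on all 33 whole blood arrays. For CD14 these were TREM1, an activating receptor of myeloid cells (r = 0.92, rho 0.89), and CHI3L1, a chitinase-like secreted glycoprotein (r = 0.90, rho 0.80). For CST3 they were VPREB1 (r = 0.83) and a sulfotransferase probe (r = 0.80), for CD68 P231802 both probes of LMO4 (r = 0.83 and 0.82), for LYZ ACTR3 and CAPZA2, which take part in actin assembly (r = 0.78 each), and for CD163 PTGR1 and MITF (r = 0.67 and 0.64). The r of CD14 with TREM1 was above its r with CST3, LYZ, CD163 and CD68. Since TREM1 was picked for the highest r of the 1361 probes, nothing is read from this order. FCGR1A, MRC1 and VCAN were not detected on all whole blood arrays and have no such neighbours.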

How the data were processed

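The authors hybridised Cy3-labelled RNA to Agilent porcine arrays and deposited the spot intensities written by Feature Extraction, with the background subtracted within each array. The labels name version 9.5.3.1 and the file headers version 10.5.1.1. The deposited intensities were taken to log2 and quantile normalized over the 45 arrays, control spots and outlier spots were left out, and spots of a probe were averaged. Of 2103 probes with a RefSeq name, 2032 were matched to a gene. Models were fitted in R 4.3.3 with limma 3.58.1. Tables used pandas 2.3.3, scipy 1.17.1 and numpy 2.4.6 under Python 3.11.15, and figures matplotlib 3.10.9. A probe was tested where it was well above background on every usable array of at least 1 group, with at least 2 usable arrays in each. Diets were fitted within a sample type and week, sample types over the 6 groups of week 27, and feeding time over the 9 whole blood groups. The code was tested on simulated data.

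The members and lists were chosen with earlier results of these data known. Every member probe is accounted for; from the list of other monocyte genes, the 3 lowest adjusted p in a comparison could be named, and for likeness the 2 probes with the highest r. Pigs carry a number in the labels, but nothing there says that a number marks the same pig in several groups. The paper describes fewer pigs than arrays, with blood taken from them repeatedly. Arrays of a diet thus share pigs across weeks and sample types, in a way the labels do not give. The main tests over feeding time and between sample types treat these arrays as independent, so p-values measure the spread between these samples. Alternatives were other scaling, normexp background correction, the series table in place of the spot files, other filters, other sets of arrays, slide, scan day, replicate number or share of detected spots in the model, the methods' t-test and each array left out, and, chosen after seeing the data, leaving out the 2 white blood cell arrays low in HBE1.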

Additional observations from a re-analysis of the deposited data

Results flagged for a closer look

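Among groups of 4 arrays in which a probe was detected on all 4, 1 array lay far from the other 3 in 5 cases. The gap was large against the range of the group. Chance alone gives this in about 1 in 20 groups, and 112 groups detected throughout were looked at. Groups with an array not detected were left out, among them CD14 P088666 in whole blood controls of week 27 and FCGR1A in those of week 19. CD14 P050971 was at 8.59 on whole blood control array 4 at week 27, against 10.54 to 10.59 on the others, a gap of 0.974 of the range. CD14 P088666 was at 7.12 on whole blood HFCSD array 4 at week 10, against 5.68 to 5.86, a gap of 0.879. On whole blood HFCD array 4 at week 19, CD163 P055186 was at 7.22 against 8.59 to 8.75 and P160596 at 7.27 against 8.46 to 8.68, gaps of 0.894 and 0.84, and these probes share bases. CD163 P304849 was at 4.93 on whole blood control array 1 at week 19 against 5.98 to 6.14, a gap of 0.869.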

How the results depend on the processing

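With other settings than the reported one, 416 values of single member probes kept their direction and their side of the threshold, 24 no longer passed and 4 passed anew. With 1 array left out, 828 kept both, 23 no longer passed and 9 passed anew. Among these values, which are those that passed or, outside the comparison of sample types, had an unadjusted p under 0.05, none reversed, while some smaller differences changed sign. Numbers of member probes passing with other settings were as follows, and where no reason is given the cause was not tested. With all 45 arrays in 1 fit, 1 passed for HFCD at week 19 and 1 in control pigs over feeding time. With the methods' t-test, unadjusted with a fold over 2, 1 passed for HFCD at week 19, HFCD at week 27, HFCSD at week 27 and HFCD over feeding time, and 5, 5 and 3 for white blood cells against whole blood in control, HFCD and HFCSD pigs, where the adjusted test passed 5, 3 and 2. Between sample types, restriction to probes detected on every array left 0 in control, 1 in HFCD and 1 in HFCSD pigs, since it removes the dim members. The 75th percentile gave 8, 5 and 8 in control, HFCD and HFCSD pigs and normexp 6, 3 and 5. The share of detected spots as a covariate gave 1 in HFCSD pigs. Without the 2 white blood cell arrays low in HBE1 it was 2 in HFCD pigs. Of all probes 4641, 4955 and 7312 were higher in white blood cells with quantile normalization and 5839, 6697 and 7685 with the 75th percentile. For the other settings no such number is given, so no weight is put on these counts. With the 75th percentile 1 member probe passed in control pigs over feeding time, beside 2391 higher and 1492 lower of all probes. Leaving out 1 array at a time, the number lay between 2 and 5 in HFCD and between 2 and 6 in HFCSD pigs for the sample types, and between 0 and 3 in control and between 0 and 2 in HFCSD pigs over feeding time. Whether replicate numbers pair the samples stayed unclear: in 1 of 14 pairs of groups was every correlation of same-numbered arrays over 0.1, and 19 of 49 arrays correlated best with their own number. That pair was HFCSD whole blood of weeks 10 and 27, at 0.335, 0.187 and 0.498. Control whole blood and white blood cells of week 27 gave 0.467, 0.016, 0.348 and 0.215. Some of the 14 pairs set different diets, and so different pigs, side by side. With the replicate number as a block, 7, 4 and 5 member probes passed between sample types in control, HFCD and HFCSD pigs, 1 in control pigs over feeding time and 0 in the other 16 comparisons. Dim probes limit the sizes given, since normexp moved them most.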
